A study of Homo sapiens with 6 samples.

Results

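miR-126 is processed from one hairpin precursor into 2 mature arms, hsa-miR-126-3p and hsa-miR-126-5p (called miR-126-3p and miR-126-5p from here), and both were measured in MDA-MB-231 cells with and without the phosphorylation-defective receptor RARαS77A. These 2 arms are the only members described here, out of 1582 miRNAs in the table, and both passed the filter on low counts. They were chosen by name, with their change between control and RARαS77A cells already known, so the values of this contrast and of the arm ratio are given as a description and not as a test. MDA-MB-231 is a human triple-negative breast cancer (TNBC) cell line. RARα is a nuclear receptor for retinoic acid, and in RARαS77A the serine at position 77, a phosphorylation site, is replaced by alanine. The study asked which miRNAs differ when this form is overexpressed. The 3 control libraries came from non-transfected MDA-MB-231 cells and the 3 RARαS77A libraries from MDA-MB-231 cells transfected with RARαS77A, which the series describes as lentiviral. No retinoid treatment is named for either group. As the control received no empty vector, delivery and mutant receptor cannot be told apart. Whether replicates are separate cultures is not stated, so the spread between them may be technical.

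miR-126 is best known as a miRNA of endothelial cells, the cells that line blood vessels, where it is made from an intron of EGFL7, a gene for a secreted protein of the vessel wall. The 3p arm is known to repress SPRED1 and PIK3R2, brakes on growth factor signalling, and VCAM1, an adhesion molecule. The 5p arm is known to repress DLK1, an inhibitor of Notch signalling. In breast cancer miR-126 is known as a suppressor of metastasis, and it is also found in blood progenitor cells and platelets. A miRNA recognises its targets mainly through the seed, which is bases 2 to 8 from its 5′ end, so 2 arms of one hairpin act on different mRNAs.

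The mature sequences from RefSeq (GRCh38.p14) are printed because the finding turns on which arm was counted. Capitals mark the seed, and each sequence runs 5′ to 3′.
miR-126-5p: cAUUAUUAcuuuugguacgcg
miR-126-3p: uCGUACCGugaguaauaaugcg
The precursor is shown with the 5p arm and then the 3p arm in capitals, so that their places in the hairpin can be seen.
MIR126: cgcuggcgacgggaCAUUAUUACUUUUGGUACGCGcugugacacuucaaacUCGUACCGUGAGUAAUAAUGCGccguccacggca

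The precursor of 85 bases lies on the plus strand of chromosome 9 from 136670602 to 136670686. miR-126-5p, of 21 bases, lies from 136670616 to 136670636, and miR-126-3p, of 22 bases, from 136670653 to 136670674. In GENCODE 29, which is on GRCh38, EGFL7 lies on the same strand from 136658856 to 136672678. Each of the 5 EGFL7 transcripts that span MIR126 holds it in the same intron, from 136670331 to 136670949, and none has an exon over it. EGFL7 mRNA was not measured in these libraries. In the structure predicted by RNAfold, 18 of the 21 bases of the 5p arm pair with bases of the 3p arm. Neither seed occurs in another of the 2370 mature miRNAs in the RefSeq table. The closest other mature sequence differs by 7 edits from miR-126-3p and by 8 from miR-126-5p. No other row of the table had counts within 5% of either arm in all 6 libraries, so neither arm was a copy of another row.

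The libraries held between 9019266 and 11338580 counts on miRNAs. Counts were scaled by TMM, edgeR's correction for differences in composition, and are given as CPM, counts relative to the scaled library size, while TPM is the same without this correction. miRNAs listed as abundant in mesenchymal-like breast cancer lines made up most of the counts. miR-21-5p, miR-100-5p, miR-125b-5p, miR-221-3p and miR-222-3p summed to between 613377 and 708844 TPM. Most of this sum was miR-21-5p, with 446868 to 515306 TPM, and miR-100-5p, with 109751 to 178018 TPM. The 6 epithelial miRNAs, such as miR-200c-3p, summed to between 89.7 and 128 TPM. Markers of other cells set the 3 controls apart from each other. All 8 markers of pluripotent stem cells, such as miR-302b-3p, had counts in control replicate 3 and in the RARαS77A libraries, with sums of 422 TPM and of 278 to 288 TPM. In control replicates 1 and 2 the sums were 0.185 and 0.0882 TPM. The 4 muscle markers summed to 91.5 TPM in control replicate 1 and to between 2.65 and 5.10 TPM in the other libraries. Smooth muscle and fibroblast markers, miR-143-3p and miR-145-5p, summed to 329 TPM in control replicate 1 and to between 37.1 and 72.1 TPM elsewhere. The liver marker miR-122-5p had 8.73 TPM in control replicate 2 and between 34.6 and 53.6 TPM elsewhere. The endocrine marker miR-375-3p had 76.7 TPM in control replicate 2 and between 1.76 and 5.99 TPM elsewhere. The fold changes and the arm ratio of miR-126 are therefore also given against control replicate 3 alone and without it.

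miR-126-3p, the abundant arm, was higher in every RARαS77A library than in every control library, on either scale. Its counts were 6654, 8069 and 6177 in control cells and 11815, 10907 and 9577 in RARαS77A cells. After TMM scaling these were 534, 548 and 564 CPM in control and 1503, 1299 and 1153 CPM in RARαS77A replicates 1 to 3. The groups did not overlap, and the controls lay close together while RARαS77A replicate 1 stood highest. The group means were 549 ± 15.3 CPM for control and 1318 ± 176 CPM for RARαS77A (SD, n = 3 each). The fitted log2 fold change was 1.26 with a standard error of 0.11, a level 2.40-fold that of control. As TPM, means were 671 ± 49.4 and 1079 ± 132 TPM (SD, n = 3 each), and the fitted level without TMM was 1.61-fold that of control. By count it ranked between 65 and 69 among all miRNAs in control libraries and between 37 and 49 in RARαS77A libraries.

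miR-126-5p, the scarce arm, did not share this rise. Its counts were 154, 237 and 186 in control cells and 128, 148 and 123 in RARαS77A cells. After TMM scaling these were 12.4, 16.1 and 17.0 CPM in control and 16.3, 17.6 and 14.8 CPM in RARαS77A cells. The groups overlapped, and control replicate 1 was the lowest of the 6 libraries. The group means were 15.2 ± 2.47 CPM for control and 16.2 ± 1.41 CPM for RARαS77A (SD, n = 3 each). The fitted log2 fold change was 0.10, and its standard error of 0.19 exceeded it. Without TMM factors the direction was the opposite. TPM averaged 18.6 ± 3.76 in control and 13.3 ± 1.07 in RARαS77A (SD, n = 3 each). The log2 fold change became -0.48 with a standard error of 0.21, although RARαS77A replicate 2, at 14.4 TPM, still lay above control replicate 1, at 14.3 TPM. Counting error alone was between 6.50% and 9.02% of each 5p count, against between 0.920% and 1.27% for the 3p arm, so the 5p values are the less precise.

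**Figure D1:**
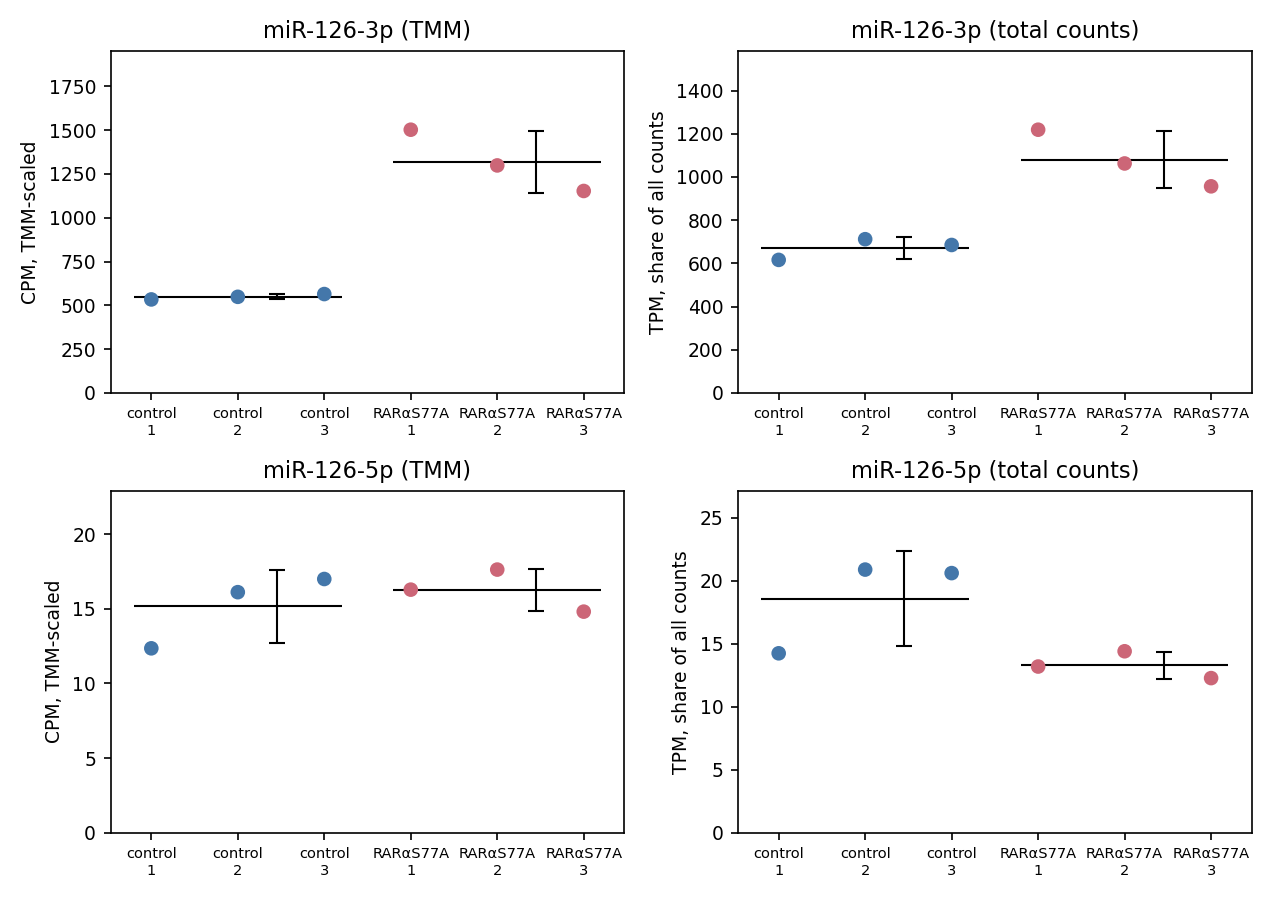
Level of miR-126-3p (top) and miR-126-5p (bottom) in each library, as TMM-scaled CPM (left) and as TPM (right); points are libraries, lines are group means and bars are SD (n = 3). The 3 RARαS77A libraries lie above the controls for miR-126-3p in both panels, and the groups overlap for miR-126-5p in both panels.

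Of the 2 arms, miR-126-3p was among those that edgeR's quasi-likelihood test called higher at an adjusted p under 0.05, and miR-126-5p was not called. Over all 506 miRNAs tested, 44.5% were called, with 23.3% higher and 21.1% lower, and the members were chosen on this contrast, so nothing is read from their count. The groups did not overlap in TMM-scaled CPM for 58.1% of the tested miRNAs, with RARαS77A higher in 31.0%. In TPM they did not overlap for 62.3%, with RARαS77A higher in 13.4% and lower in 48.8%. miR-126-3p had the 51st highest of the 506 log2 fold changes and miR-126-5p the 242nd. The level of every miRNA depended on the scaling. Without TMM factors the median over all tested miRNAs of the log2 fold change went from 0.06 to -0.51, and with upper quartile scaling it was 0.27. Relative to this median, miR-126-3p was higher by 1.20 on the log2 scale with TMM, by 1.20 without it and by 1.21 with upper quartile scaling. Likewise miR-126-5p lay 0.04, 0.03 and 0.03 above the median.

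miR-126-3p was also higher within the libraries alike in stem cell markers. Against control replicate 3 alone, which shares the stem cell markers with the RARαS77A libraries, its log2 fold change was 1.22, and without control replicate 3 it was 1.23. For miR-126-5p these values were -0.07 and 0.13. The comparison with control replicate 3 alone used a term for control replicates 1 and 2 and rests on 1 control library. The 8 blood markers were listed for blood as a whole and not for the blood cells known to hold miR-126. They summed to between 33.6 and 45.4 TPM in control libraries and to between 23.7 and 32.7 TPM in RARαS77A libraries. On the TMM scale these sums were 31.8, 35.01 and 27.7 CPM in control replicates 1 to 3 and 40.3, 31.2 and 28.5 CPM in RARαS77A replicates 1 to 3, so that the groups overlapped. None of the 8 was at 0 in all libraries, and miR-144-3p and miR-223-3p were at 0 in control replicate 3 and the RARαS77A libraries. The part of blood markers in the result was not tested. In bulk RNA, more cells with a miRNA and more of it per cell cannot be told apart.

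**Figure D2:**
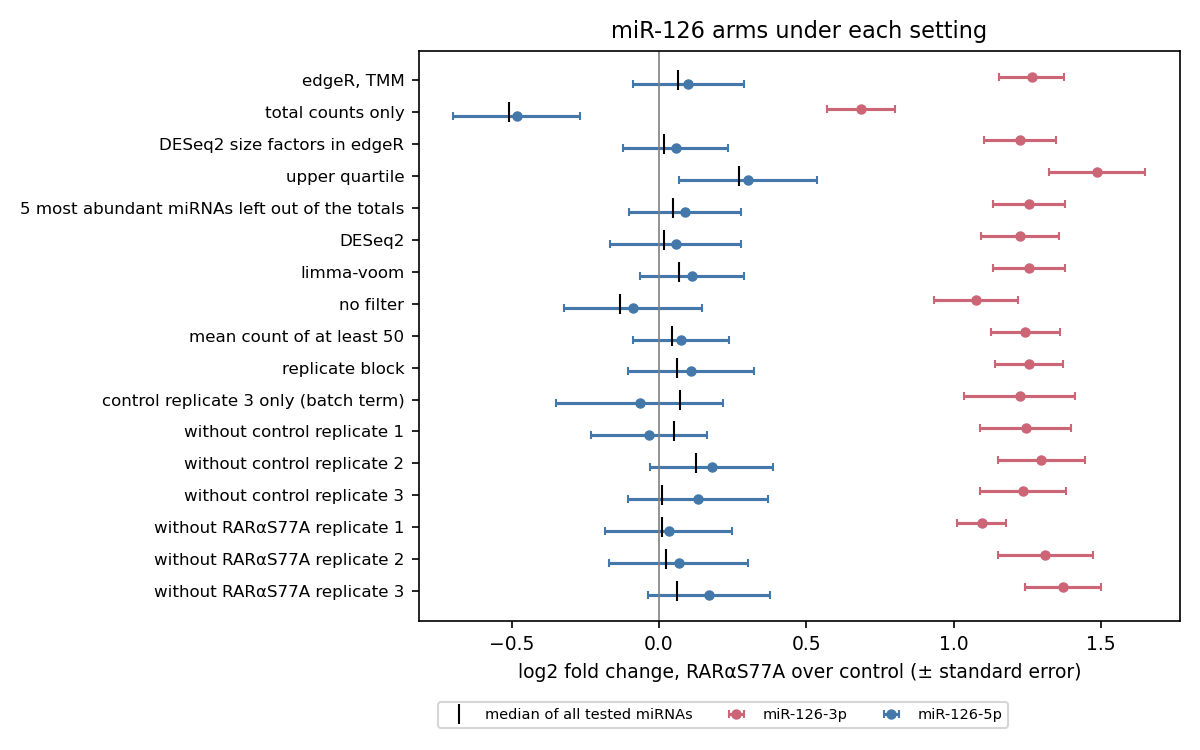
Log2 fold change of miR-126-3p (red) and miR-126-5p (blue) in RARαS77A against control cells under each setting, with standard errors; black ticks mark the median of all tested miRNAs. miR-126-3p lies between 0.69 and 1.49 throughout, whereas miR-126-5p stays beside the median and takes either sign.

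The ratio of the arms needs no scaling, since both are counted in the same library. miR-126-5p made up a smaller share of the miR-126 counts in RARαS77A cells. Its share was 2.26%, 2.85% and 2.92% in control replicates 1 to 3 (95% Wilson intervals 1.93 to 2.64, 2.52 to 3.23 and 2.54 to 3.37). It was 1.07%, 1.34% and 1.27% in RARαS77A replicates 1 to 3 (0.902 to 1.27, 1.14 to 1.57 and 1.06 to 1.51). These intervals cover counting error only, and no control interval touched an interval of an RARαS77A library. Mean shares were 2.68% ± 0.363 and 1.23% ± 0.138 (SD, n = 3 each). Put the other way, each count of the 5p arm came with 36.8 ± 5.55 counts of the 3p arm in control libraries and with 81.3 ± 9.77 in RARαS77A libraries (SD, n = 3 each). The log2 ratio of 5p to 3p went from -5.19 ± 0.21 to -6.34 ± 0.17 (SD, n = 3 each), a difference of -1.15. Against control replicate 3 alone the difference was -1.28, and without this library it was -1.08.

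**Figure D3:**
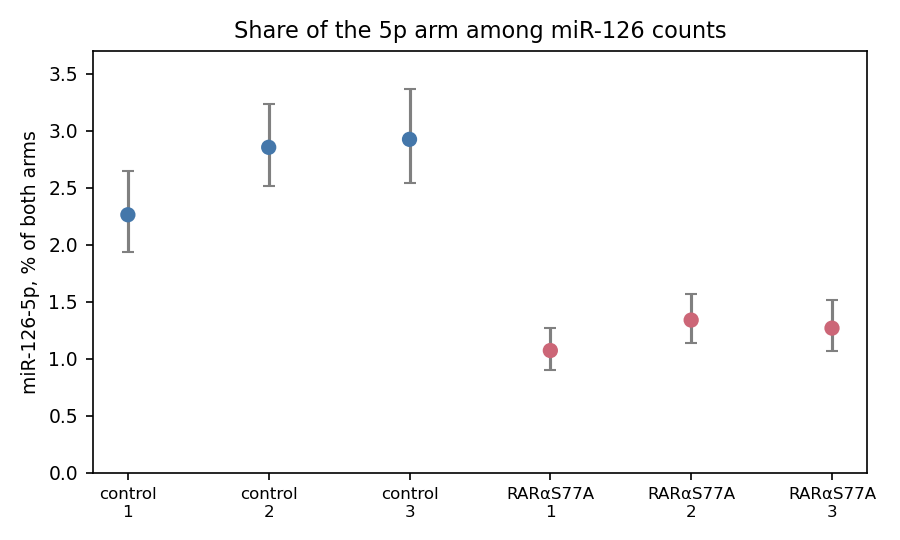
Share of miR-126-5p among the counts of both miR-126 arms in each library, in percent, with 95% Wilson intervals that cover counting error only. The 3 control libraries lie between 2.26% and 2.92% and the 3 RARαS77A libraries between 1.07% and 1.34%.

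To see how other hairpins behaved, the same ratio was taken for each precursor name with both arms past the filter, as the scarcer (minor) over the more abundant (major) arm over all libraries. This gave 119 precursors beside miR-126. Their median difference between RARαS77A and control was -0.37 on the log2 scale, with quartiles of -1.18 and 0.19, and 82 of the 119 were below 0. With miR-126 counted, the ratio was lower in all RARαS77A libraries than in all controls in 44.2% of the 120 precursors, and higher in 15.8%. Not all of the higher ones were independent. miR-423 and miR-3184 had nearly the same mean counts (9959 and 30539 against 9957 and 30410). In miR-486 and miR-3158 the 2 arms were nearly equal (138 and 142, 170 and 174), with differences of only 0.03 and 0.06. miR-126, at -1.15, had a larger fall than most of the others, and 31 of the 119 (26.1%) fell further. Among the 74 with a mean count of at least 50 for the minor arm, 19 did so (25.7%). The median log2 fold change was -0.20 for the minor arms and 0.21 for the major arms. The median minor arm thus had the lower log2 fold change of the pair of medians, as miR-126-5p did beside miR-126-3p. The RARαS77A libraries also detected fewer miRNAs, with 989 to 1037 having at least 1 count, against 1084 to 1164 in control libraries, and the part of this in the ratios was not tested.

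The 5 precursors whose ratio changed most nearly as that of miR-126 did were miR-653 (-1.17), miR-26b (-1.19), let-7i (-1.21), miR-324 (-1.21) and miR-23b (-1.07). In these 5 the abundant arm did not have a change as large as that of miR-126-3p. In let-7i the abundant 5p arm had a log2 fold change of 0.30 and the scarce 3p arm -0.90, and in miR-26b these were 0.00 and -1.21. In miR-126 the abundant arm was at 1.26 and the scarce arm at 0.10. Arms much like these were found in precursors a little further off, named here after their values were seen. They were miR-576 (0.20 for the scarce and 1.29 for the abundant arm), miR-139 (0.31 and 1.27) and miR-625 (-0.13 and 1.15). Among the 36 other precursors whose abundant arm was called higher, a choice that by itself favours a lower ratio, the median difference was -1.03. In 17 of these the scarce arm was not called, in 9 it was called higher and in 10 lower.

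**Figure D4:**
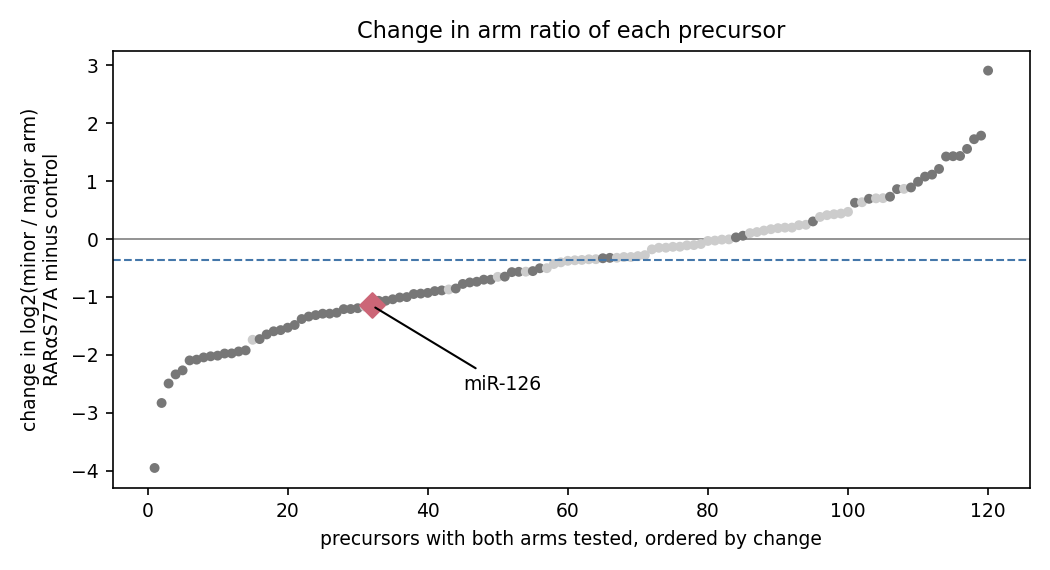
Difference between RARαS77A and control cells in the log2 ratio of the minor to the major arm for 120 precursors, ordered from the lowest; dark points have groups that do not overlap, the dashed line is the median of the 119 others, and the red diamond is miR-126. miR-126, at -1.15, lies below the median of -0.37 and above 31 precursors.

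Across the 6 libraries, the levels of the 2 arms were only loosely alike. Pearson's r of their log2 CPM was 0.385. This placed miR-126-5p 144th of the 312 miRNAs that averaged at least 50 counts, by likeness to miR-126-3p. The miRNAs most like miR-126-3p were miR-4326, miR-589-5p, miR-425-5p, miR-192-5p and miR-4661-5p, with r between 0.992 and 0.999. These 6 points fall into 2 groups and share the scaling, so r includes the difference between groups. With the group means removed, r was 0.982 for miR-4326 and 0.944 for miR-589-5p. It was 0.897 for miR-425-5p, 0.796 for miR-192-5p and 0.730 for miR-4661-5p. These miRNAs were picked out of 312 by r over the same 6 libraries. That choice by itself favours a high r with the group means removed too. The log2 fold changes of miR-4326 and miR-589-5p were 0.92 and 1.90. The miRNAs most like miR-126-5p were miR-301b-3p, miR-339-3p, miR-1287-5p, miR-27a-3p and miR-128-3p, with r between 0.687 and 0.842. Except for miR-128-3p, none of these was called.

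MIR126 has no abundant neighbour in these cells. RefSeq places 7 other miRNA precursors within 1 Mb, among them MIR6722 at a distance of 76207 bases and MIR4674 at 124343 bases. Of their 9 mature miRNAs, 4 had rows analysed here, and 3 of these reached fewer than 10 counts in every library. The fourth, miR-4479, 216047 bases away, had 9, 12 and 6 counts in control cells and 12, 13 and 6 in RARαS77A cells. It was the only one to pass the filter and was not called (log2 fold change 0.84, standard error 0.43, adjusted p = 0.153 in edgeR). It was not past an unadjusted p of 0.05 either with edgeR, DESeq2 or limma-voom. miR-126-3p, with at least 6177 counts per library, thus differed from every measured miRNA of this stretch in abundance, and no regional pattern could be read from counts this low.

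Other miRNAs known for their roles in endothelial cells and vessel growth moved in both directions. Of 27 listed, 25 were tested, of which 6 were higher, 7 lower and 12 not called (edgeR, adjusted p under 0.05). This share of 52.0% stands beside 44.5% of all tested miRNAs, and the median log2 fold change was -0.28 against 0.06. The higher ones were miR-10a-5p, miR-21-5p, miR-24-3p, miR-132-3p, miR-139-5p and miR-218-5p. miR-139-5p, which is often low in tumours, rose by 1.27 on the log2 scale (standard error 0.11), close to miR-126-3p, and went from 175 to 422 CPM. miR-218-5p, which is known to act on SLIT and ROBO guidance signalling, had 1.05 (standard error 0.10). miR-132-3p, a CREB-induced miRNA of activated endothelium, was at 0.90, miR-10a-5p at 0.84 and miR-21-5p at 0.65. miR-24-3p, at 0.83, is uncertain because miR-3074-5p lies antisense to it and the handling of strand is not given. The 2 had nearly the same mean count, 89113 for miR-24-3p and 88885 for miR-3074-5p, and both had a log2 fold change of 0.83. Whether the same reads were counted for both was not tested.

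The 7 lower ones were miR-17-5p, miR-20a-5p, miR-23a-3p, miR-23b-3p, miR-92a-3p, miR-210-3p and miR-424-5p. The largest fall was that of miR-210-3p, the miRNA induced by hypoxia, at -1.46 (standard error 0.14), from 270.3 to 98.4 CPM. miR-17-5p, miR-20a-5p and miR-92a-3p, which come from the MIR17HG cluster and are known to promote proliferation and to shape vessel growth, were at -1.28, -1.03 and -0.61. Within this cluster miR-17-5p and miR-20a-5p differ by few bases, as do miR-23a-3p and miR-23b-3p, so reads may be shared among such relatives. None of the 13 called miRNAs changed sign under the 4 other scalings in edgeR, but some lost their call. miR-21-5p was called in 2 of the 5 scalings, and miR-23b-3p, miR-24-3p, miR-132-3p and miR-424-5p in 4 of the 5. Without TMM factors miR-21-5p was at 0.08, miR-24-3p at 0.24 and miR-132-3p at 0.31 (adjusted p of 0.716, 0.190 and 0.263, edgeR). Against control replicate 3 alone, miR-21-5p, miR-23a-3p, miR-23b-3p and miR-424-5p were no longer called (adjusted p of 0.0847, 0.0506, 0.0616 and 0.275, edgeR). Their log2 fold changes there were 0.66, -0.57, -0.50 and -0.32, beside 0.65, -0.70, -0.48 and -0.69 with all controls. miR-21-5p and miR-424-5p each kept a call in 3 of the 6 fits that left out 1 library. miR-221-3p and miR-222-3p, which restrain endothelial growth, had log2 fold changes of -0.32 and 0.39 and were not called with TMM. In the same directions they were called in 2 and in 1 of the 5 scalings. The abundant miR-27b-3p and miR-146a-5p, at 0.09 and -0.28, were not called with TMM either. Without TMM factors they were at -0.49 and -0.85 and called lower (adjusted p of 0.0101 and 0.0035, edgeR). Against control replicate 3 alone miR-146a-5p was at -0.59.

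The miRNAs known, like miR-126, as suppressors of breast cancer metastasis did not move as one group. Of 16 listed, 12 were tested and 4 were higher, miR-7-5p, miR-146b-5p, miR-193b-3p and miR-200b-3p. None was called lower by edgeR with TMM, by DESeq2 or by limma-voom, although 1 was lower at an unadjusted p under 0.05 with each of them. miR-34a-5p was at -0.48 on the log2 scale (standard error 0.17, adjusted p = 0.0555 in edgeR). It was called lower in 3 of the 5 scalings in edgeR. The 33.3% called stands beside 44.5% of all tested miRNAs, and the median log2 fold change was -0.11. miR-7-5p, which targets EGFR, was at 1.21 on the log2 scale (standard error 0.13), from 4544 to 10505 CPM, but is uncertain for the same reason as miR-24-3p, since miR-3529-3p lies antisense to it. miR-146b-5p, a brake on NF-κB signalling, was at 1.15 (standard error 0.14) and miR-193b-3p at 1.04, or at 0.46 and not called without TMM factors (adjusted p = 0.0719, edgeR). The abundant miR-340-5p, at -0.19, was not called with TMM, nor was miR-146a-5p, which both lists hold. Without TMM factors both were called lower, at -0.76 and -0.85 (adjusted p of 0.0048 and 0.0035, edgeR). miR-200b-3p, an epithelial miRNA that represses ZEB1, was at 0.49, but at -0.08 without TMM factors, and was not called against control replicate 3 alone (adjusted p = 0.198, edgeR) or in 4 of the 6 fits that left out 1 library. miR-335-5p and miR-206 are often named together with miR-126. miR-335-5p had 129, 80 and 72 counts in control cells and 40, 42 and 47 in RARαS77A cells, which gave -0.50 on the log2 scale (standard error 0.26, adjusted p = 0.160 in edgeR) and no call. Without TMM factors miR-335-5p was at -1.06 and called lower (adjusted p = 0.0085, edgeR). miR-206 had 36, 0 and 1 counts in control cells and 1, 0 and 2 in RARαS77A cells and was not tested. Its highest count was in control replicate 1, the library with the most muscle markers.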

How the data were processed

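Small RNA libraries of 6 MDA-MB-231 samples were sequenced by the authors on the Illumina platform. The authors deposited raw read counts per mature miRNA and TPM values. The deposited TPM equals the CPM of its column, with no length term. The submitters' processing notes name Bowtie. For the genome build, strand, multiply matching reads and read filters, settings were not given in the sources used here. All numbers here were computed from the counts.

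The counts were tested with edgeR 4.0.16 in R 4.3.3 (TMM, filterByExpr with a minimum count of 10, glmQLFit and glmQLFTest, Benjamini-Hochberg adjustment over 506 miRNAs, limit 0.05). Standard errors were derived as log2 fold change over the root of F. DESeq2 1.42.0, limma 3.58.1 (voom) and other scalings, filters and sets of libraries were alternatives. In simulated counts for RARαS77A against control, run on 489 miRNAs, edgeR recovered 94% of log2 changes of 2 and 49% of those of 1. The simulated rises and falls were balanced, with no shift in composition between groups. In the data the TMM factors were 1.15 to 1.30 for control and 0.81 to 0.83 for RARαS77A libraries, so these rates do not cover that shift. Wilson intervals came from scipy 1.17.1 and the hairpin fold from ViennaRNA 2.7.2. The arms were taken by name, and miRNAs to be named were list members, those within 1 Mb, those of nearest arm ratio and those of most similar profile. Members, lists and settings were chosen with earlier results of these data known. Libraries with the same number showed little common deviation (correlations of 0.04, 0.10 and 0.02), and those with different numbers had -0.12 to 0.06. With 3 libraries per group this cannot show whether the numbers pair them, and the labels do not say so.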

Additional observations from a re-analysis of the deposited data

How the results depend on the processing

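With TMM in edgeR 118 miRNAs were higher and 107 lower in RARαS77A cells. Scaling to total counts gave 51 and 213, and the comparison with control replicate 3 alone gave 76 and 55. Without a filter, with more miRNAs tested, 162 were lower, and at an adjusted p of 0.01, which is stricter by construction, 62 were lower. Without single libraries the numbers lay between 101 and 125 and between 92 and 116.

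miR-126-3p had log2 fold changes of 0.69 with total counts, 1.49 with upper quartile scaling and 1.08 without a filter, and was positive under every setting run. Without single libraries it lay between 1.09 and 1.37, with the lowest value without RARαS77A replicate 1. miR-126-5p was at -0.48 with total counts and 0.30 with upper quartile scaling, and between -0.03 and 0.18 without single libraries. The arm ratio difference lay between -1.27 and -1.05 without single libraries, and its 4 other values lay within 1 SD of -1.15. The replicate block gave 1.26 and 0.11 for the arms, with 107 higher and 94 lower miRNAs, and 5 higher and 7 lower in the endothelial list and 3 higher and 0 lower among the metastasis suppressors. As it is not known whether the numbers pair the libraries, nothing is read from it.

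Of the endothelial list, 3 were higher and 12 lower with total counts, and 12 lower without a filter. DESeq2 called 7 of this list higher and 10 lower, and limma-voom 6 and 7. Both DESeq2 size factors in edgeR and a mean count of at least 50 gave 10 lower, whereas upper quartile scaling gave 5. Without single libraries between 5 and 7 were higher and between 6 and 9 lower. Of the metastasis suppressors, 2 were higher and 5 lower with total counts, and 3 lower without a filter. With DESeq2 size factors in edgeR, with the 5 most abundant left out of the totals, with a mean count of at least 50 and against control replicate 3 alone, 1 was lower. Without single libraries between 3 and 4 were higher and between 0 and 1 lower, the 1 without RARαS77A replicate 3. Where not stated, the cause was not tested. miR-126-5p rests on 123 to 237 counts per library, and no detection limit was computed for it.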

Other observations

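The calls of both arms were also set side by side for all 120 precursors with both arms tested. Both arms were called higher in 9 precursors and both lower in 13. The arms were called in opposite directions in 11, with the abundant arm higher in 10 of them. As in miR-126, the abundant arm was higher and the scarce arm not called in 18 precursors, miR-126 included, whereas the abundant arm was lower and the scarce arm not called in 9. In 38 precursors neither arm was called. The scarce arm was called on its own in 22, with 14 lower and 8 higher. No test was made of these counts, since a scarce arm has fewer reads and is called less readily.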
